A study of Mus musculus with 10 samples.

Results

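The interferon response and the MHC class I pathway were followed through 39 listed mouse genes in cholangiocytes, the epithelial cells of bile ducts, grown in a collagen I or a laminin-rich matrix. The genes were taken by symbol from the deposited count table of 18407 genes. There were 38 of the 39 in the analysis, and Ddx58 was not analysed here. Of the 38, 35 had enough counts to be tested among 10789 tested genes, and Oas1a, Ifit3 and Usp18 did not. None of the 35 passed the test between the matrices. The most visible pattern lay between libraries of the same matrix: antiviral effector genes were high in laminin 4 and low in laminin 1, the numbers being the replicates.

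All cells were normal mouse cholangiocytes (NMC, a cell line) kept in 3D double spheroids for 6 days with no added agent, so no interferon was given to either. The collagen group (5 libraries) was embedded in collagen I at 1 mg/mL. The laminin group (5 libraries) was embedded in laminin and collagen I mixed at 3:1 by volume, so both groups were in contact with collagen I. A single cell line was used, and nothing in the labels says which replicates were separate cultures. The p-values therefore cover only the spread between the samples, which may be technical. The labels also give each library a code letter, B (collagen 1 to 3), D (collagen 4 and 5), E (laminin 1 to 3) or F (laminin 4 and 5). Its meaning is not stated, and no letter occurs in both matrices, so any batch it marks and the matrix cannot be told apart.

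Interferons are secreted proteins that cells release on sensing viral nucleic acid. They act through receptors and the JAK kinases on STAT and IRF transcription factors, which bind short promoter elements, the interferon-stimulated response element (ISRE) and the gamma-activated site (GAS), and so switch on antiviral genes. The same system raises MHC class I, in which a heavy chain and beta-2 microglobulin display peptides that the proteasome cut and the TAP transporter carried into the endoplasmic reticulum. Bile duct epithelium shows MHC class I on its surface, and it is a target of immune cells in immune-mediated cholangitis.

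Libraries held 4424725 to 8129979 counts. Values are CPM, the counts scaled to a common library size, and differences are log2 of laminin over collagen. Summed cholangiocyte markers, keratins 8, 18 and 19 among them, reached 3729 to 5727 CPM in collagen and 3756 to 5451 CPM in laminin. Of 16 leukocyte markers, Tyrobp, Adgre1, Itgax and Siglech were among those with no count in any library, and Ptprc had 1 count in all. Others did have counts, with 303 over all libraries for Cd68, 34 for Csf1r and 13 for Itgam. Hepatocyte markers, Alb and Hnf4a among them, summed to 88.5 to 136 CPM in collagen and 135 to 185 CPM in laminin, and endothelial markers to 1.26 to 2.72 CPM over all libraries. Most of the hepatocyte sum was Hnf4a, at a mean of 94.6 CPM. Apoa1 of that list averaged 1.77 CPM, Cps1 had 5 counts in all and Cyp2e1 had none. In bulk RNA, fewer cells of a type and less RNA per cell cannot be told apart.

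RefSeq promoter windows (build GRCm38.p6, 250 bases before to 50 after a start) were found for 32 of the 39 genes, and 14 of the 32 (43.8%) held an ISRE-type match, GAAANNGAAA on either strand. The share was 3.44% over all 32851 promoters, and 3.82% over the 14648 genes of the count table with a window. The shorter GAS-type TTCNNNGAA was found in 10 of the 32 (31.2%), against 8.3% of all promoters and 8.62% of the 14648 genes. The windows with the most ISRE-type matches are printed in gene orientation, 5′ to 3′, with the matches in capitals, to show the element that interferon-activated factors read. Several antiviral effectors, Oasl2, Ifit2, Adar, Cmpk2, Xaf1 and Ifi35, had no such match in their windows. Isg15 lies at chr4:156200769-156201068 on the minus strand, Bst2 at chr8:71537423-71537722 on the minus strand, Ifitm3 at chr7:141010695-141010994 on the minus strand and Ifit1 at chr19:34640639-34640938 on the plus strand.
Isg15: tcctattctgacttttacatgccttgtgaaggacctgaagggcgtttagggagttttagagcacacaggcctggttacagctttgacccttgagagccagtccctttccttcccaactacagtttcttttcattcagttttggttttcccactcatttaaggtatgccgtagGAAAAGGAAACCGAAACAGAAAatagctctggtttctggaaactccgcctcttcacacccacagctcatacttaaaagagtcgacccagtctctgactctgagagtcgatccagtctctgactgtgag
Bst2: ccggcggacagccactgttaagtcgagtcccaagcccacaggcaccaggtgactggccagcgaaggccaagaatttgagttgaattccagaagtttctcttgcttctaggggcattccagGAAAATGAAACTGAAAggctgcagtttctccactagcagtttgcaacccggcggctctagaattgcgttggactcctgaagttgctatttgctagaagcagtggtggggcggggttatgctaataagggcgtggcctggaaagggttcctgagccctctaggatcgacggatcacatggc
Ifitm3: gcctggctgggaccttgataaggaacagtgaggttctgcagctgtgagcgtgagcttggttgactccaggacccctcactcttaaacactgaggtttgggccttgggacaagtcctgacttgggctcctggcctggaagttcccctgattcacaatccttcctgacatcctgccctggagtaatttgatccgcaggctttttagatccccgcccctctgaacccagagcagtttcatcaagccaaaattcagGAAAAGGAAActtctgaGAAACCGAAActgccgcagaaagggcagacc
Ifit1: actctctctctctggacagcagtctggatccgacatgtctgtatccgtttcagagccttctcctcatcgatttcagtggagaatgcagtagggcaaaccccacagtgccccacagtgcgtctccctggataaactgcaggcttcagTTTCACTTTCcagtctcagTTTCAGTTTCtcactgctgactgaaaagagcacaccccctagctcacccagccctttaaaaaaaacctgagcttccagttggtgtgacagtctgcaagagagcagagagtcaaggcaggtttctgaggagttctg
In Isg15, 3 overlapping matches begin 78, 72 and 66 bases before the start. The 2 matches of Bst2 also overlap, at 130 and 124 bases before it, whereas those of Ifit1 stand apart at 104 and 85. In Ifitm3 both lie within the transcript, beginning at its base 3 and base 20. Bst2 and Ifitm3 each hold 1 GAS-type match as well, which shares 3 bases with an ISRE-type match. A match describes letters in a window and is not a measured binding site. Genes with a match also included Ddx58, Ifih1, Irf2, Stat2, Oas1a, Ifit3, Eif2ak2, Gbp2, Ifitm2 and B2m.

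Between the matrices, 0 of the 35 tested genes were called by edgeR's quasi-likelihood test at an adjusted p of 0.05, where 16 of all 10789 genes were called (0.148%). No member had group ranges that did not overlap, against 3.23% of all genes. At an unadjusted p under 0.05 there was 1 member, Gbp2, or 2.86% of the 35, while 11.7% of all genes reached that level. DESeq2 called 0 members and 214 genes in all, with 2 of 38 members and 1540 of 14422 genes at an unadjusted p under 0.05. The differences lay on both sides of 0, with 18 genes higher and 17 lower in laminin and a median of 0.005 for the members and 0.009 for all genes (log2). With DESeq2 size factors or plain library sizes 16 of the 35 were higher, and with a length and GC trend removed from each library 23 were. The 95% intervals of 29 of the 35 lay within 1 log2 unit of 0, so that a change of more than 2-fold was outside them, while Oasl2, Ifit1, Rtp4, Ly6e, Xaf1 and Psmb9 had intervals that reached further.

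**Figure D1:**
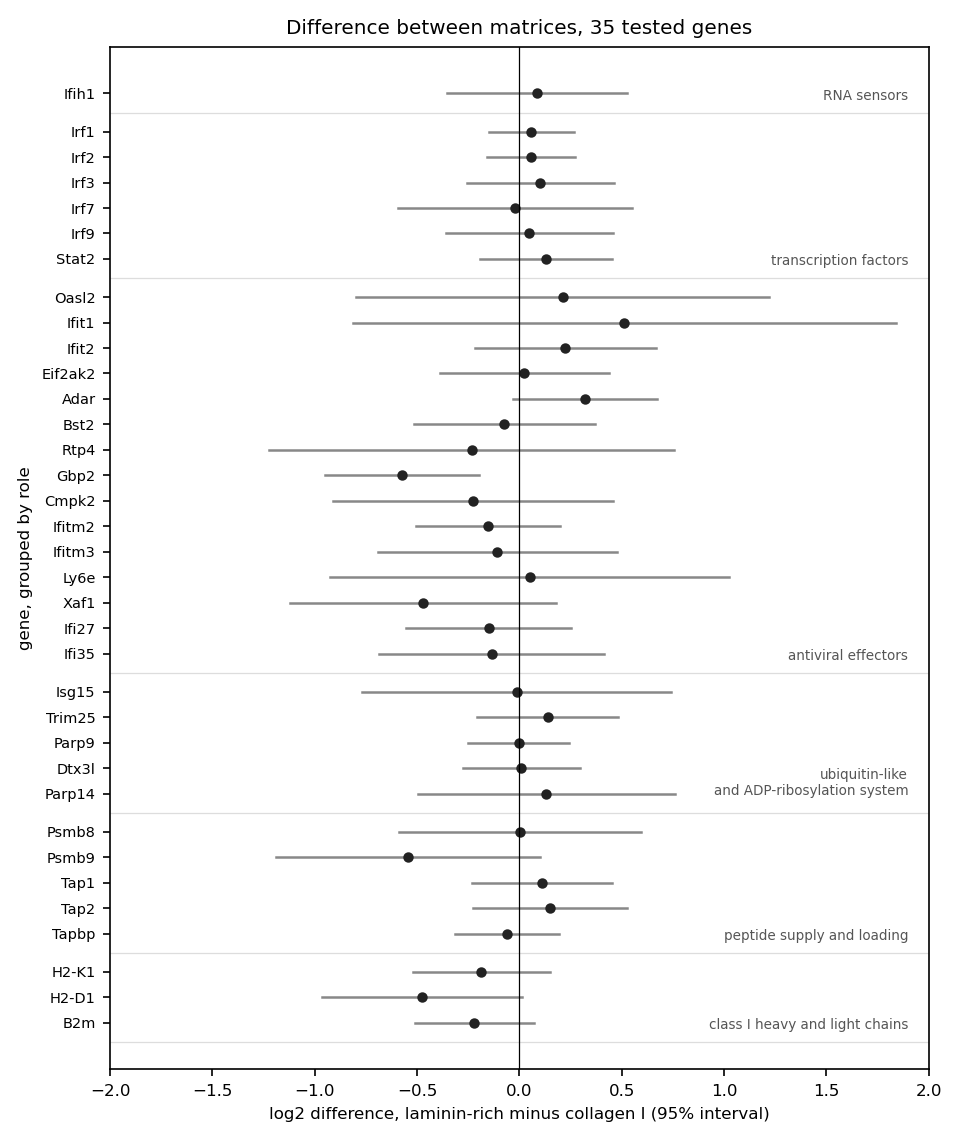
Log2 difference, laminin-rich minus collagen I matrix, for the 35 tested genes grouped by role. Points are estimates and lines 95% intervals. Differences run from -0.57 (Gbp2) to 0.51 (Ifit1), and none passed the test over all genes.

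Among the sensors, Ifih1 encodes MDA5, which detects long double-stranded RNA in the cytosol. Its level was 41.1, 37.8, 36.4, 25 and 26.8 CPM in collagen 1 to 5 and 24.6, 31.8, 38.2, 52.0 and 31.1 CPM in laminin 1 to 5. The highest and the lowest library were both laminin libraries, and the groups overlapped. The difference was 0.09 (SE 0.20, edgeR adjusted p = 0.902).

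Of the 6 transcription factors, 5 were higher and 1 lower in laminin, none of them called, with differences from -0.02 to 0.13. Stat2, which acts with Irf9 in the complex that binds the ISRE, measured 36.9, 36.4, 40.5, 32.4 and 41.4 CPM in collagen and 40.7, 38.3, 42.4, 54.1 and 29.3 CPM in laminin. Laminin 4 was highest of all and laminin 5 lowest, so the laminin range enclosed the collagen range (difference 0.13, SE 0.15, edgeR adjusted p = 0.789). Irf7, which amplifies interferon transcription, measured 6.92, 5.53, 10.2, 7.33 and 8.98 CPM in collagen and 6.58, 4.18, 7.83, 12.3 and 7.6 CPM in laminin. Here too the highest library was laminin 4 and the lowest a laminin library, laminin 2 (difference -0.02, SE 0.26, edgeR adjusted p = 0.987). Irf9 reached 34.8 CPM in laminin 4 and 15.3 to 21.7 CPM in the other laminin libraries, with 19.6 to 23.9 CPM in collagen.

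Irf1, an activator of MHC class I genes, and Irf2, its antagonist, varied little. The highest library of a matrix was 1.22 times the lowest for Irf1 in both matrices. Irf1 averaged 103 ± 8.80 CPM in the 5 collagen and 108 ± 7.92 CPM in the 5 laminin libraries (SD, n = 5 each). Irf2 was at 63.6 ± 3.32 and 66.2 ± 6.5 CPM. Irf3, the factor that sensors activate, averaged 38.6 ± 10.3 and 41.4 ± 1.81 CPM, and its lowest library was collagen 2. Exons of Irf1, Irf3 and Irf7 overlap a gene on the opposite strand, and the labels do not say whether counting used strand, so their levels are uncertain by that gene's reads. The same holds for Eif2ak2, Adar, Gbp2, Ifi35, Usp18, Psmb8, Tap2 and Tapbp.

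The 15 tested antiviral effectors split into 6 higher and 9 lower in laminin, 0 called, with a median difference of -0.11. Ifit1, which binds viral RNA without the methyl marks of host caps, had the largest positive difference. It measured 1.41, 1.07, 5.23, 0.814 and 4.97 CPM in collagen and 0.980, 4.18, 1.60, 8.99 and 4.38 CPM in laminin, from 4 to 60 counts a library. Each matrix held libraries near 1 CPM and libraries above 4 CPM, and the difference of 0.51 (SE 0.61, edgeR adjusted p = 0.796) was smaller than its error. Without laminin 4 it was -0.10.

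Gbp2, a GTPase of the guanylate-binding family that attacks the vacuoles of intracellular pathogens, had the largest negative difference. It measured 18.8, 22.1, 21.8, 23.2 and 21 CPM in collagen and 10.1, 13.1, 16.3, 19.9 and 12.2 CPM in laminin. All collagen libraries but collagen 1 were above every laminin library, and laminin 4 was above collagen 1, so the ranges overlapped. The mean was 21.4 ± 1.65 CPM in collagen and 14.3 ± 3.85 CPM in laminin (SD, n = 5), a difference of -0.57 (SE 0.17, 95% interval -0.95 to -0.19). With an edgeR unadjusted p of 0.00606 and adjusted p of 0.239, it did not pass. Its sign was the same under all 21 alternatives.

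Xaf1, which binds the apoptosis inhibitor XIAP, averaged 7.55 ± 2.04 and 5.45 ± 2.50 CPM, and Rtp4 averaged 6.38 ± 2.49 and 5.41 ± 3.82 CPM (SD, n = 5). Adar, which edits adenosine to inosine in double-stranded RNA, averaged 50.5 ± 6.73 CPM in collagen and 63.0 ± 14.6 CPM in laminin (difference 0.32, SE 0.16, edgeR adjusted p = 0.468). Ifit2, a relative of Ifit1, averaged 40.6 ± 10.2 and 47.5 ± 11.9 CPM. The nucleotide kinase Cmpk2 was low, at 2.95 ± 0.970 and 2.51 ± 0.977 CPM. These 5 effectors had intervals that included 0 in the comparison of the matrices.

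Levels of the effectors spanned a wide range. Per kilobase of the longest annotated transcript, Ifitm2 stood at 269 CPM, Bst2 (tetherin, which holds budding virus at the cell surface) at 35.1 CPM and Ifitm3, which restrains virus entry from endosomes, at 35 CPM. On the same scale Ifi27 was at 28.6, Eif2ak2 at 21.2, Ifi35 at 17.0, Ly6e at 4.57, Oasl2 at 2.74, Ifit1 at 1.27 and Cmpk2 at 0.835 CPM per kilobase. Ifitm2 and Ifitm3 are close copies of each other, 53599 bases apart on chromosome 7, so reads may be split between them. Differences between the matrices for Ifitm2 (-0.15), Ifitm3 (-0.11), Bst2 (-0.07), Ifi27 (-0.15) and Ifi35 (-0.13) had adjusted p of 0.769 or more in edgeR.

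Oasl2, a relative of the enzymes that make the messenger which activates RNase L, and Ly6e, a surface protein anchored to the membrane by a lipid, were chosen for display after their values were seen. Oasl2 measured 7.63, 5.36, 11.3, 7.73 and 7.70 CPM in collagen and 2.66, 7.81, 7.35, 23.7 and 4.38 CPM in laminin. Ly6e measured 7.63, 7.32, 11.2, 12.8 and 12.5 CPM in collagen and 4.06, 5.99, 6.08, 27.7 and 8.99 CPM in laminin. For both genes laminin 4 was above every collagen library and laminin 1 below every one, and the highest laminin library was 8.90 times the lowest for Oasl2 and 6.83 times for Ly6e. Their differences between the matrices were 0.21 (SE 0.47) and 0.05 (SE 0.45), with edgeR adjusted p of 0.899 and 0.978. Without laminin 4 they were -0.55 and -0.75.

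**Figure D2:**
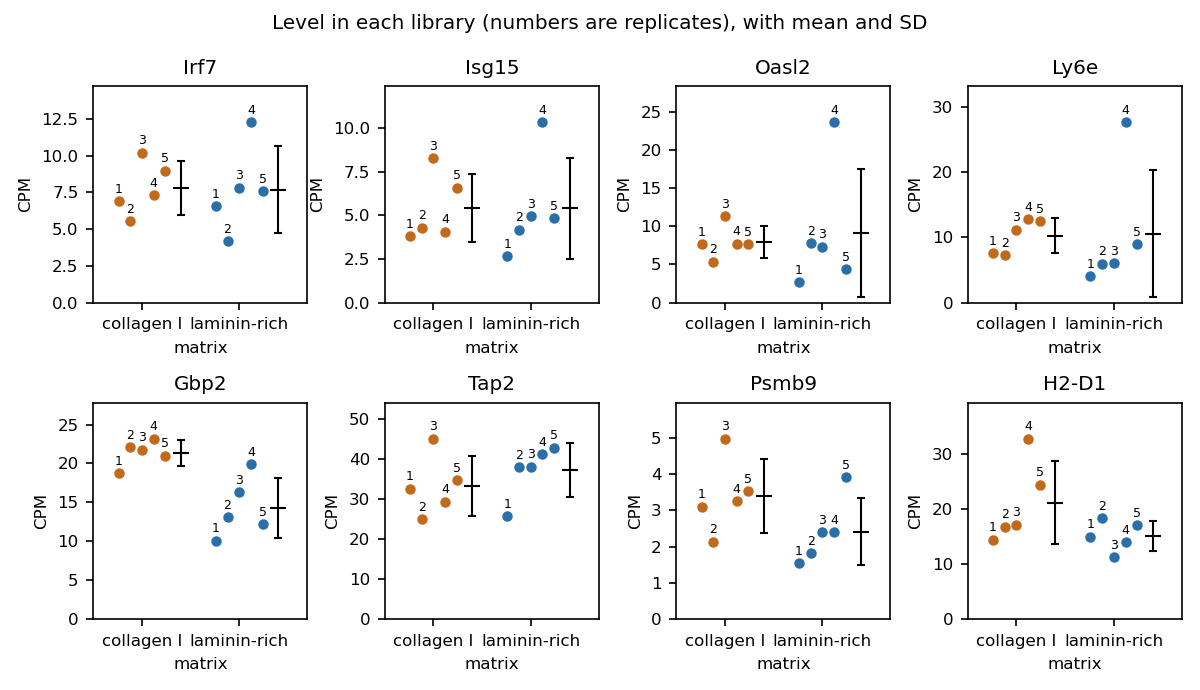
CPM of 8 genes in each library, collagen I in orange and laminin-rich in blue, with the replicate number above each point and the mean and SD at the right of each group (n = 5). In laminin 4, Irf7, Isg15, Oasl2 and Ly6e were above all other libraries, while Gbp2, Tap2, Psmb9 and H2-D1 were not.

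Members of the ubiquitin-like and ADP-ribosylation system were 3 higher and 2 lower, 0 called. Isg15, the ubiquitin-like protein that is attached to other proteins, measured 3.81, 4.28, 8.27, 4.07 and 6.58 CPM in collagen and 2.66, 4.18, 4.96, 10.3 and 4.84 CPM in laminin. Laminin 4 was highest and laminin 1 lowest of the 10, with a difference of -0.01 (SE 0.35, edgeR adjusted p = 0.993). Trim25, a ubiquitin and ISG15 ligase, measured 168, 162, 131, 96.3 and 103 CPM in collagen and 141, 146, 162, 155 and 122 CPM in laminin. The laminin libraries all lay inside the collagen range (difference 0.14, SE 0.16, edgeR adjusted p = 0.789).

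Dtx3l and Parp9 encode partners in one ligase complex and lie head to head on chromosome 16 with starts 681 bases apart and overlapping exons. Parp9 was at 56.8 ± 6.47 and 56.7 ± 5.64 CPM and Dtx3l at 50.8 ± 7.31 and 51.2 ± 6.53 CPM (SD, n = 5). Parp14, an ADP-ribosyltransferase encoded nearby, averaged 24.3 ± 7.69 and 26.7 ± 10.6 CPM, and ranged from 12.9 CPM in laminin 1 to 40.2 CPM in laminin 4. Usp18, which removes Isg15 from its targets, was too low to be tested. It was listed with 1 to 18 counts a library, and 2.70 CPM in laminin 4 was its highest level.

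The other untested members behaved alike in where they were highest. Oas1a, a synthetase that senses double-stranded RNA, had 17 counts (2.55 CPM) in laminin 4 and 1 to 10 counts elsewhere. Ifit3, a binding partner of Ifit1, had 13 counts (1.95 CPM) in laminin 4 and 2 to 9 counts elsewhere. Both have near-identical neighbours between which reads could be split.

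The 5 genes of peptide supply and loading were 3 higher and 2 lower, 0 called. Psmb9, a catalytic subunit of the immunoproteasome, measured 3.11, 2.14, 4.98, 3.26 and 3.53 CPM in collagen and 1.54, 1.82, 2.40, 2.40 and 3.92 CPM in laminin. Laminin 5 lay above all collagen libraries but collagen 3, laminin 3 and 4 lay below all collagen libraries but collagen 2, and laminin 1 and 2 lay below all of them. The difference was -0.55 (SE 0.30, edgeR adjusted p = 0.503), the largest negative one of this role. Tap2, a chain of the peptide transporter, measured 32.6, 25, 45.1, 29.3 and 34.7 CPM in collagen and 25.8, 38.0, 38.1, 41.2 and 42.9 CPM in laminin. Apart from laminin 1, the laminin libraries were above 4 of the 5 collagen libraries (difference 0.15, SE 0.17, edgeR adjusted p = 0.792).

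Its partner chain Tap1 was at 10.5 ± 1.50 and 11.5 ± 1.63 CPM, and Psmb8, the other immunoproteasome subunit listed, at 12.1 ± 2.74 and 12.3 ± 4.82 CPM (SD, n = 5). Tapbp (tapasin, which holds class I molecules to the transporter) was far more abundant, at 146 CPM per kilobase against 10.2 for Tap2, 6.39 for Psmb8, 2.81 for Tap1 and 1.01 for Psmb9. The 4 genes Psmb9, Tap1, Psmb8 and Tap2 sit side by side on chromosome 17. Starts of Psmb9 and Tap1 are 211 bases apart on opposite strands and their exons overlap, so without the strand setting their reads cannot be told apart there.

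The 3 chains of the class I molecule itself were lower in laminin, 0 called, with a median difference of -0.22, although B2m stood at 0.005 with the length and GC trend removed and H2-K1 at 0.02 without the letter D libraries. H2-D1, a classical heavy chain, measured 14.4, 16.8, 17.1, 32.8 and 24.4 CPM in collagen and 15.0, 18.3, 11.2, 13.9 and 17.1 CPM in laminin. Collagen 4 and 5 stood above all others, and the other 3 collagen libraries lay within the laminin range. The difference was -0.48 (SE 0.23, 95% interval -0.97 to 0.01, edgeR adjusted p = 0.437), and -0.27 without collagen 4. The second heavy chain, H2-K1, averaged 171 ± 36.9 and 150 ± 23.3 CPM, and the light chain B2m 269 ± 44.5 and 231 ± 35.9 CPM (SD, n = 5). B2m had the highest level of all members per kilobase, 291 CPM, with H2-K1 at 85.7 and H2-D1 at 8.61. Reads of H2-K1 and H2-D1 may be shared with each other and with the H2-Q genes, which are near copies. All 3 chains were highest in collagen 4 and lowest in laminin 3.

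The libraries of one matrix differed by role. Laminin 4 was the highest of all 10 libraries for 14 of 35 members (40%), where it was highest for 14.1% of all tested genes. Within laminin it was highest for 19 of 35 (54.3% against 24.8% of all genes), among them 12 of the 15 antiviral effectors but 1 of 5 loading genes and 0 of 3 class I chains. Laminin 1 was the lowest laminin library for 23 of 35 (65.7% against 21.6%), including 12 of 15 effectors and all 5 loading genes. These shares describe libraries singled out after their values were seen.

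**Figure D3:**
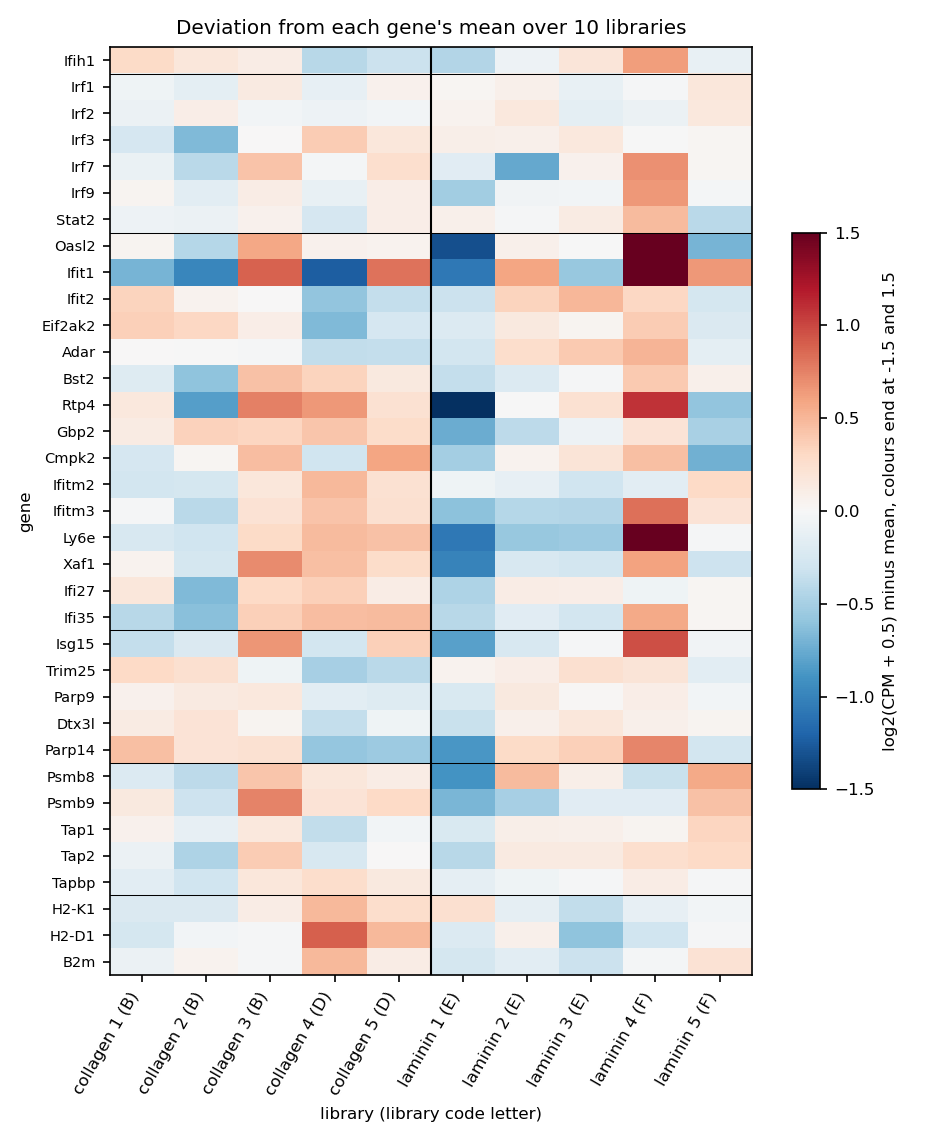
Each row is 1 tested gene and each column 1 library with its code letter; colour is log2(CPM + 0.5) minus the gene's mean over the 10 libraries. Laminin 4 is mostly red and laminin 1 mostly blue in the effector rows, and collagen 4 is red for the 3 class I chains at the bottom.

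Measured from each gene's own mean, the median member stood at 0.31 log2 units in laminin 4 (25 of 35 above 0), at -0.36 in laminin 1 (6 of 35), at 0.17 in collagen 3 (30 of 35) and at -0.21 in collagen 2 (11 of 35). The median over all tested genes was between -0.01 and 0.02 in every library, where the scaling places it near 0. Of all tested genes, 52.7% were above 0 in laminin 4, 51.7% in laminin 1, 51% in collagen 3 and 50.4% in collagen 2. Effectors averaged 0.67 in laminin 4 and -0.70 in laminin 1, whereas the class I chains averaged -0.15 and -0.08 there and 0.63 in collagen 4. Without laminin 4, 9 of 35 members were higher in laminin, with a median of -0.15 (-0.02 over all genes). Without laminin 1, 24 were higher, with a median of 0.06.

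Marker sums in laminin 4 were not all like those of the other libraries. Fibroblast and stellate markers summed to 57.4 CPM there and to 24.4 to 34.3 CPM in the other 9 libraries, and 29.2 CPM of the laminin 4 sum was Col1a1. Pdgfra was also highest there, at 13.5 CPM, while Des, at 1.95 CPM, was not. Dcn, which had group ranges that did not overlap, measured 6.35, 9.64, 7.42, 8.75 and 8.34 CPM in collagen and 2.52, 3.45, 3.84, 5.25 and 2.30 CPM in laminin (difference -1.20, SE 0.23, edgeR adjusted p = 0.0697). Acta2 had no count in laminin 4, and Lrat, which marks stellate cells, had none in any library. The leukocyte sum was 7.19 CPM in laminin 4, 4.16 to 5.45 CPM in the other laminin libraries and 4.38 to 8.95 CPM in collagen, most of it Cd68. The cholangiocyte sum was lowest of the laminin libraries in laminin 4 (3756 CPM) and highest in laminin 1 (5451 CPM), with Krt19 at 687 and 1377 CPM, whereas Spp1 of the same list stood at 1069 and 492 CPM. Of the hepatocyte markers, Alb was highest of all in laminin 4 (62.0 CPM) and lowest of the laminin libraries in laminin 1 (16.1 CPM), while Hnf4a, also at 62.0 CPM, was lowest of all in laminin 4. The part of these markers' cell types in the level of the effectors was not tested.

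**Figure D4:**
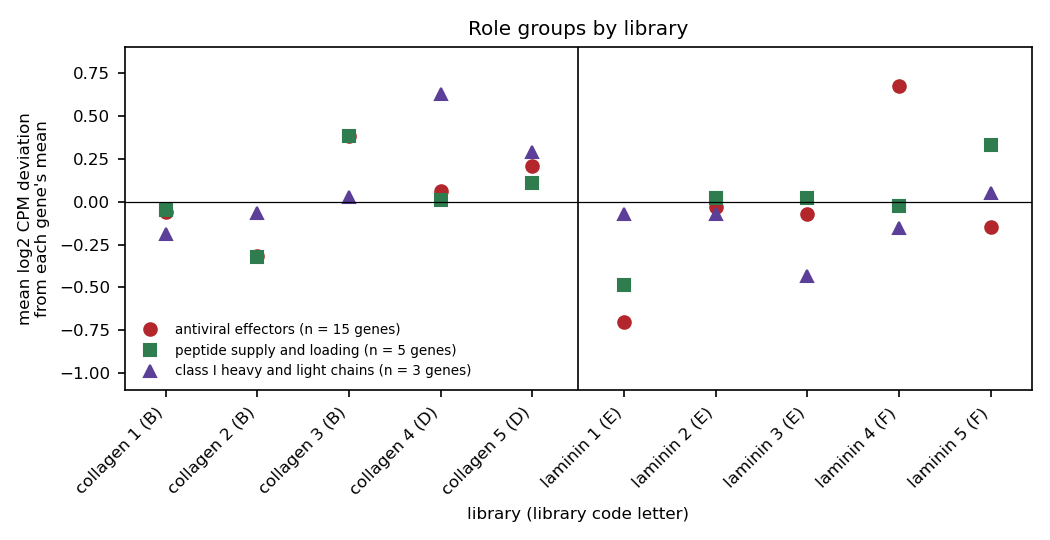
Mean log2 CPM deviation from each gene's mean, per library, for the antiviral effectors, the peptide supply and loading genes and the class I chains. Effectors lie at 0.67 in laminin 4 and -0.70 in laminin 1, and class I chains at 0.63 in collagen 4.

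Within laminin, letter F (laminin 4 and 5) was compared with letter E (laminin 1 to 3). No gene was called by edgeR (0% of 10789), but 8 of 35 members had an unadjusted p under 0.05 (22.9%), as did 3.84% of all genes. The 8 were Irf9, Oasl2, Ifit1, Ifitm3, Ly6e, Ifi35, Isg15 and B2m. Higher in F were 31 of 35 members and 5509 of all 10789 genes. The median difference was 0.25 for members and 0.005 for all genes. Ly6e had the largest, 1.81, followed by Ifit1 at 1.65 and Oasl2 at 1.31. Without laminin 5, when F is laminin 4 alone and is assumed to vary as the other groups do, 26 genes were called, Ifitm3 and Ly6e among them. Laminin 5 itself held 4.38 CPM of Oasl2, below the 7.81 and 7.35 CPM of laminin 2 and 3, and 4.84 CPM of Isg15, between their 4.18 and 4.96 CPM.

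Within collagen, letter D (collagen 4 and 5) was compared with letter B (collagen 1 to 3). At an edgeR unadjusted p under 0.05 there were 11 of 35 members (31.4%) and 37.3% of all genes. After adjustment 1708 genes were called (15.8%) and 3 of 35 members, a smaller share. H2-D1 rose in D by 0.82 (SE 0.22, edgeR adjusted p = 0.0344), Trim25 fell by 0.62 (SE 0.16, adjusted p = 0.0297) and Eif2ak2 fell by 0.71 (SE 0.20, adjusted p = 0.0366). Eif2ak2, the kinase PKR that halts translation when it meets double-stranded RNA, measured 115, 111, 96.0, 56.4 and 74.8 CPM in collagen and 77.1, 99, 91.9, 116 and 76.7 CPM in laminin. For all 3 genes collagen 4 and 5 lay outside the range of collagen 1 to 3, and between the matrices Eif2ak2 differed by 0.02 (SE 0.19).

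Longer transcripts were measured lower in the D libraries as a rule over all genes, with log2 slopes per doubling of length of -0.37 in collagen 4 and -0.19 in collagen 5 against 0.18, 0.15 and -0.06 in collagen 1 to 3. The longest transcript is 5590 bases for Trim25, 4313 for Eif2ak2 and 2102 for H2-D1. With a length and GC trend taken out of each library, 456 genes and 0 members were called between D and B, with edgeR adjusted p of 0.0923 for Trim25, 0.119 for Eif2ak2 and 0.215 for H2-D1. Their differences were then -0.30, -0.40 and 0.43. Taking out the trend can also remove a true difference between the letters that tracks length or GC. The part of transcript length in these calls was not tested. The D libraries also had the highest summed cholangiocyte markers of collagen (5727 and 5089 CPM, against 3729 to 4882 CPM in B). The same held for summed leukocyte markers (8.95 and 8.50 CPM, against 4.38 to 6.78 CPM). Most of the leukocyte sum was Cd68, at 7.94 and 7.22 CPM in D against 3.65 to 5.53 CPM in B. Itgam was lower in D (0 and 0.160 CPM, against 0.179 to 0.424 CPM), and Ptprc had no count in collagen. The part of these markers in these calls was not tested. Not every cholangiocyte marker was higher in D. Cdh1 was at 356 and 392 CPM there against 432 to 547 CPM in B. Spp1, at 742 and 768 CPM, lay within the B range of 727 to 881 CPM. Calls were recounted with 1 library left out. Without collagen 1, 2 or 4 no gene was called at all, and without collagen 5 or laminin 2 there were 635 and 358 genes and 0 members. There were 9 members among 3655 genes without collagen 3, 6 among 1960 without laminin 1, 5 among 2436 without laminin 4 and 2 among 1264 without laminin 3. Leaving out collagen 4 or 5 leaves 1 library of letter D, which is then assumed to vary as the other groups do.

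Leaving out the 3 libraries of letter B, the laminin group was compared with collagen 4 and 5 alone. Then 2083 of 11018 tested genes were called, and 3 of 36 tested members, a smaller share. These were Trim25, higher in laminin (0.52, edgeR adjusted p = 0.0275), and H2-D1 (-0.95, adjusted p = 0.0219) and H2-K1 (-0.48, adjusted p = 0.0442), lower. At an edgeR unadjusted p under 0.05 there were 4092 genes and 10 members. Trim25 and H2-D1 were also called between letters D and B, and collagen 4 and 5 are the D libraries.

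The other genes of the pathway were read from 7 lists. Between the matrices edgeR called 0 of 104 tested list genes, while 12 (11.5%) had an unadjusted p under 0.05, beside 11.7% of all genes, and DESeq2 called 1. Of the 12, 11 were lower and 1 higher in laminin. They were picked by p-value in these data at a share near that of all genes, whose split was not counted. Among 21 interferon genes, the ligands, 20 had no count in any library, Ifnb1 and Ifng among them, and Ifne had 1 count in all. A count of 0 allows up to 0.365 to 0.691 CPM, depending on the library and for counting error only. Receptors, kinases and feedback genes were all expressed (18 of 18 tested, 9 higher and 9 lower). Jak2 was at 276 ± 77.3 and 280 ± 23 CPM, Ifngr2, a chain of the interferon-gamma receptor, at 256 ± 9.33 and 249 ± 32.6 CPM, and Stat3 at 277 ± 34.2 and 303 ± 15.0 CPM (SD, n = 5).

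Of 14 tested sensing genes, 8 were higher and 6 lower, and 2 had group ranges that did not overlap. Ifi204, a sensor of DNA, measured 25.3, 23, 27.4, 22.6 and 25 CPM in collagen and 17.4, 14.9, 12.8, 18.7 and 17.7 CPM in laminin. Every laminin library was below every collagen library, with a difference of -0.60 (SE 0.13, edgeR adjusted p = 0.0995), which did not pass; DESeq2 called it with an adjusted p of 0.00361. Irf5, a relative of Irf3 and Irf7, measured 3.25, 3.93, 4.86, 5.29 and 3.85 CPM in collagen and 3.22, 1.82, 2.08, 2.40 and 2.07 CPM in laminin. Its ranges nearly met, since collagen 1 held 3.25 CPM and laminin 1 held 3.22 CPM (difference -0.84, SE 0.23, edgeR adjusted p = 0.196). Exons of Irf5 overlap Tnpo3 on the opposite strand, so its low level is uncertain by that gene's reads, and Stat3, Ifi30, H2-Q4 and Rfx5 have such overlaps too.

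Of 47 further interferon-stimulated genes tested, 18 were higher and 29 lower in laminin, with a median of -0.06. The library pattern of the members was seen in this list too. Laminin 4 was the highest laminin library for 25 of the 47 (24.8% of all genes). Laminin 1 was the lowest for 24 of the 47 (21.6% of all genes). Lgals9, a galectin, averaged 293 ± 82.6 and 237 ± 18.4 CPM, Zc3hav1, which binds viral RNA, 153 ± 21.8 and 144 ± 20.8 CPM, and Ifi30, a lysosomal reductase, 149 ± 45.9 and 139 ± 14.7 CPM (SD, n = 5). Further genes of peptide supply and loading were 3 higher and 8 lower of 11 tested. The chaperones Canx and Calr were at 804 ± 145 and 791 ± 46.2 CPM and at 728 ± 53.0 and 718 ± 65.5 CPM.

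Of non-classical class I genes, 7 were higher and 2 lower of 9 tested, with H2-Q4 the most abundant at 96.8 ± 13.8 and 87.9 ± 8.67 CPM. Of the MHC class II chains listed, H2-Eb1, H2-Oa and H2-Ob had no count and H2-Aa had 1 count over all libraries. Of the 5 class II list genes tested, 3 were higher and 2 lower, and Rfx5, a transcription factor of class II promoters, was at 31.3 ± 7.12 and 35.2 ± 5.51 CPM.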

How the data were processed

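Poly(A) mRNA of 10 NMC spheroid libraries was measured, made from 30 ng of RNA with a stranded kit per the labels' protocols. The authors deposited raw read counts by gene symbol, whole numbers that carry no normalization. The submitters' processing notes name GRCm38 (mm10) and DESeq2. Which aligner, counter, strand setting and annotation they used is not given in the sources used here. Counts per library ran from 4424725 to 8129979, so low genes carry more counting error.

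Genes were filtered with filterByExpr (10789 of 18407 kept) and scaled by TMM, and all 10 libraries were compared with edgeR 4.0.16 (quasi-likelihood F test, two-sided, R 4.3.3). Adjusted p-values are Benjamini-Hochberg values over the 10789 genes, called under 0.05. The library letters were compared in the same way with 4 groups. Errors are the SE of the log2 difference with 95% intervals, or the SD of CPM. The steps were tested on simulated counts. The closest pair of libraries, collagen 1 and 2, differed by more than sampling noise (chi-square per degree of freedom 3.32), so no library was treated as a copy of another; this does not show that they came from separate cultures.

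Alternatives were DESeq2 1.42.0, its size factors, plain library size, no filter, a replicate block, 1 CPM in 5 libraries, a length and GC spline offset (5 degrees of freedom), each letter left out and each library left out. Since the offset ignores the matrix and the letter, it can take out a true difference between matrices or letters that tracks length or GC. Positions and lengths came from GENCODE M21 on GRCm38.

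The members and lists were chosen with earlier results of these data known. Values per library were printed for the member with the largest positive and negative difference in each role, for every called member and for every member whose ranges did not overlap. From the other lists came every called gene, every gene with ranges apart and up to 3 with the highest mean CPM. Promoters were taken by number of ISRE-type matches, then level. Genes outside this rule are examples chosen after their values were seen.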

Additional observations from a re-analysis of the deposited data

Results flagged for a closer look

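In 4 of 70 groups of 5 libraries, 1 library lay far from the other 4 by Dixon's test, and chance gives about 1 in 20 groups, or 3.5 of 70. Tap2, a chain of the peptide transporter, was at 4.70 log2 CPM in laminin 1 (25.8 CPM), with the next lowest laminin library at 5.26 (38.0 CPM). Dtx3l was at 5.33 log2 CPM in laminin 1 (40.0 CPM), with the next at 5.71 (52.1 CPM). Ifi27 was at 4.13 log2 CPM in collagen 2 (17.1 CPM), with the next at 4.91 (29.7 CPM). Irf2 was at 6.12 log2 CPM in collagen 2 (69.3 CPM), the highest collagen library, with the next at 5.99 (63.1 CPM).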

How the results depend on the processing

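No alternative called a member between the matrices except leaving out the collagen libraries of letter B, which called 1 higher (Trim25) and 2 lower (H2-D1, H2-K1). Of the 35 members, 11 kept their sign in all 21 alternatives and 24 changed it in at least 1; Gbp2, Xaf1, Psmb9, H2-D1, Adar, Ifit2, Cmpk2, Tap1, Tap2, Irf1 and Irf2 kept it. Over all genes, 16 calls became 214 with DESeq2, 29 with no filter, 0 with the replicate block, 104 with the length and GC offset, 2083 without letter B, 5 without D, 1 without E, 5 without F and 0 to 64 with 1 library left out. List genes called were 1 with DESeq2 and 11 without letter B. Between letters D and B, calls were 456 with the offset and 0 to 3655 with 1 library left out, and member calls were 0 with the offset, 5 with no filter and 0 to 9 with 1 library left out. Between F and E, leaving out 1 library gave 0 to 26 genes and 0 to 2 members. The log2 differences that changed sign were as follows. With DESeq2 it was Dtx3l -0.0015. With its size factors they were Dtx3l -0.0012 and Psmb8 -0.0065. With plain library size they were Dtx3l -0.0018 and Psmb8 -0.0097. With no filter they were Dtx3l -0.013 and Psmb8 -0.019. With 1 CPM in 5 libraries they were Dtx3l -0.0076 and Psmb8 -0.014. With the offset they were Bst2 0.091, Ifitm2 0.010, Ifitm3 0.11, Ifi27 0.0071, Ifi35 0.014, Isg15 0.17, Dtx3l -0.080, Parp14 -0.043 and B2m 0.0046. With the replicate block they were Oasl2 -0.11, Ly6e -0.25 and Psmb8 -0.043. Without letter B they were Irf3 -0.24, Ly6e -0.28, Parp9 0.16 and Psmb8 -0.12. Without D they were Ifih1 -0.11, Irf7 0.018, Eif2ak2 -0.22, Bst2 0.045, Ifitm2 0.054, Ifitm3 0.051, Ifi35 0.14, Trim25 -0.079, Dtx3l -0.11, Parp14 -0.15, Tapbp 0.059 and H2-K1 0.024. Without E they were Irf7 0.34, Bst2 0.15, Rtp4 0.21, Ifitm3 0.42, Ifi35 0.19, Isg15 0.48 and Parp9 0.0003. Without F they were Ifih1 -0.10, Irf9 -0.21, Oasl2 -0.46, Ifit1 -0.38, Eif2ak2 -0.037, Ly6e -0.96, Dtx3l -0.033, Parp14 -0.014 and Psmb8 -0.088. With 1 library left out, the sign was not constant and values ran as follows: Ifih1 -0.11 to 0.20, Irf3 -0.045 to 0.22, Irf7 -0.28 to 0.11, Irf9 -0.18 to 0.17, Stat2 -0.0092 to 0.23, Oasl2 -0.55 to 0.46, Ifit1 -0.10 to 0.92, Eif2ak2 -0.10 to 0.11, Bst2 -0.23 to 0.040, Rtp4 -0.74 to 0.036, Ifitm3 -0.45 to 0.021, Ly6e -0.75 to 0.27, Isg15 -0.43 to 0.20, Parp9 -0.060 to 0.050, Dtx3l -0.067 to 0.088, Parp14 -0.083 to 0.31, Psmb8 -0.15 to 0.18. The cause of these changes was not tested. Same-numbered collagen and laminin libraries had correlations of deviations of -0.31, 0.26, -0.11, -0.33 and 0.48. Only collagen 5 correlated best with the laminin library of its own number. No steady pairing by replicate number was seen, but this check cannot exclude one, since length trends of single libraries also enter the deviations. At this depth a low gene such as Ifit1, with 4 to 60 counts a library, or Psmb9 has an interval wide enough to hold a change of 2-fold.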
